A study of Mus musculus with 20 samples.

Results

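The genes described here encode nuclear subunits of the 5 enzyme complexes of oxidative phosphorylation, together with assembly factors that carry the same symbol prefixes. They were chosen by symbol alone: protein-coding genes of GENCODE M21 (mm10) whose symbol starts with Nduf, Uqcr, Sdh, Atp5, Cox4, Cox5, Cox6, Cox7 or Cox8. The rule found 98 gene identifiers, and 97 of them, 84 subunits and 13 assembly factors, had a transcript among the 42890 genes with values. Of these 94 reached 1 FPKM in at least 5 libraries and were tested with 15010 genes in all. FPKM is a read count divided by transcript length and by the library total, so levels of different genes can be set side by side per length. Ndufa13, Cox7b2 and Cox8c did not reach that level. The rule uses no measured value, but it was set with earlier results of these data known. Subunits whose symbols start otherwise fall outside it, so sums and shares of a complex cover only the subunits that the rule names.

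The tissue was the abdominal aorta of C57BL/6 mice, profiled by RNA-seq after removal of ribosomal RNA from the total RNA. The 4 groups of 5 libraries were wild type mice (labelled Rab22 WT) given saline, wild type mice given angiotensin II (AngII) at 500 ng/kg/min, Rab22a knockout mice given saline, and Rab22a knockout mice given AngII at that dose, each for 14 days. The small GTPase Rab22a acts in the sorting and recycling of endosomes. AngII, the effector peptide of the renin-angiotensin system, makes arteries contract and blood pressure rise. The labels give neither the age of the mice, nor how the Rab22a allele was made, nor whether the deletion was limited to a cell type. Libraries are named below by genotype (WT or KO), treatment and replicate number.

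In oxidative phosphorylation, complexes I and II pass electrons from NADH and succinate to ubiquinone, complex III passes them on to cytochrome c, and complex IV passes them to oxygen. Complexes I, III and IV pump protons across the inner mitochondrial membrane, and complex V, the ATP synthase, uses that gradient to make ATP. Most subunits are encoded in the nucleus and are assembled with a few subunits encoded in mitochondrial DNA, with the help of assembly factors that are not part of the finished enzyme. The pathway is abundant in heart, skeletal muscle and brown fat, which surrounds some large vessels of mice, and several complex IV subunits have forms particular to such tissues.

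Promoters of the nuclear subunits are known for sites of NRF1, of the ETS factor GABP, of YY1 and of estrogen-related receptors (ERR), regulators of mitochondrial genes. RefSeq promoters (GRCm38.p6), reaching from 250 bases before to 50 after a gene's start, were matched to 78 of the members by gene identifier or symbol. Exact matches on either strand were sought for GCGCA and GCGC parted by any 1 base (NRF1), CCGGAAG (ETS), AAGATGGCG (YY1) and AAGGTCA (ERR), and no 2 of these motifs overlapped in the sequences shown. The NRF1 letters occurred in 21 of 78 member promoters (26.9%), against 4.59% of 32817 promoters. The ETS letters occurred in 25.6% of member promoters against 8.86% of all, the YY1 letters in 8.97% against 1.4%, and the ERR letters in 10.3% against 4.72%. At least 1 of the 4 motifs was found in 42 member promoters (53.8%) and in 17.8% of all. Median GC content of the window was 58.5% in members and 52.7% over all promoters, and its part in these shares was not tested. None of the 4 tissue-specific forms with a promoter in the table (Cox6b2, Cox7a1, Cox7b2 and Cox8b) held any of the motifs. All 4 belong to complex IV, where only 3 of the 13 matched promoters held any, so the lack is not particular to tissue forms. A total of 6 promoters, from 250 bases before the start to the base before it, are shown, Ndufb4 as an example of repeated motifs and the other five for members the results return to, with every motif match in capitals. Sdha (flavoprotein of complex II), Ndufb4 (accessory subunit of complex I) and Cox6a1 (the widespread form of a complex IV subunit) carry repeated NRF1 letters. Atp5e (epsilon subunit of complex V) carries the ETS letters, read on the other strand (its ERR letters lie in the 50 bases after the start and are not shown), and Cox8b and Cox7a1 (muscle and brown fat forms of complex IV subunits) carry none.
Sdha, chr13:74350241-74350490, minus strand: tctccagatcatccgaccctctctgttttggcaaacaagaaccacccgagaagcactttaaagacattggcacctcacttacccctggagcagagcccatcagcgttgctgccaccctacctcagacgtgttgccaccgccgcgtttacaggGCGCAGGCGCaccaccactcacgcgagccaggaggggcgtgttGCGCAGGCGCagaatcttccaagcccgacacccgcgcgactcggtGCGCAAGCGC
Ndufb4, chr16:37654369-37654618, minus strand: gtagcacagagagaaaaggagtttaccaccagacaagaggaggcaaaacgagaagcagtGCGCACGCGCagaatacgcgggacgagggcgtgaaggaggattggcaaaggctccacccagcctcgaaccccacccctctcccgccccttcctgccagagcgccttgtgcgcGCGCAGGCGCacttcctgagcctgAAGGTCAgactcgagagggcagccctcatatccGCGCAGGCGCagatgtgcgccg
Cox6a1, chr5:115348959-115349208, minus strand: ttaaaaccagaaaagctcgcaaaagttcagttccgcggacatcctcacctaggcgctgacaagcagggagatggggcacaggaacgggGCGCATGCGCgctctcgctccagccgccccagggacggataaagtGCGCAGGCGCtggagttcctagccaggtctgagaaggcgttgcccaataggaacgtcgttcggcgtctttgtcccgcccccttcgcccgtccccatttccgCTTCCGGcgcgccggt
Atp5e, chr2:174464102-174464351, minus strand: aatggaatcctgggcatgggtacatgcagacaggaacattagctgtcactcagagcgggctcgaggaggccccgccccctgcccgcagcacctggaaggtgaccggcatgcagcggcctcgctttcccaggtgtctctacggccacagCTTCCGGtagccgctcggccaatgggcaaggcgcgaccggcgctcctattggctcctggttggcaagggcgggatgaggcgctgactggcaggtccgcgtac
Cox8b, chr7:140900447-140900696, minus strand: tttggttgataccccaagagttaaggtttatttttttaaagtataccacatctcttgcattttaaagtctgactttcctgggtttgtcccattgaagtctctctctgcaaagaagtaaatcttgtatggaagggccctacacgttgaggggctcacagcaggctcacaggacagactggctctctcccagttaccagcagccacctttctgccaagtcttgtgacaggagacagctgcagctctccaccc
Cox7a1, chr7:30183921-30184170, plus strand: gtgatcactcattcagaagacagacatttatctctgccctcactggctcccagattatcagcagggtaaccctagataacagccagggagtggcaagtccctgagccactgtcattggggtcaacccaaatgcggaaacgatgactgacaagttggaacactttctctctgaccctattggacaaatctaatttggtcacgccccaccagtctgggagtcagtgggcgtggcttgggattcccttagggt
A match of letters is a description of the sequence and shows no binding. The bases shown of Cox6a1 hold the NRF1 letters at -162 to -153 and at -117 to -108 and the ETS letters at -16 to -10, counted back from the start.

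The values implied between 68690000 and 77466000 reads per library. The coding transcript Rab22a-201 was between 1.87 and 8.62 FPKM in the 10 wild type libraries and at most 0.00563 FPKM in the 10 knockout libraries, while Rab22a-203, annotated as subject to nonsense-mediated decay, was between 7.43 and 11.1 FPKM in knockout and at most 3.61 FPKM in wild type. The aortic smooth muscle genes Acta2 and Myh11 were present in every library, at 522 to 3128 and 126 to 401 FPKM. Ucp1, which defines brown adipocytes, ranged from 22.7 to 1170.2 FPKM, and the skeletal muscle actin Acta1 from 0.902 to 3084 FPKM, both varying by far more than the smooth muscle genes. A total of 3 libraries stood apart. KO saline 3 had the lowest brown adipocyte level and WT saline 5 the highest skeletal muscle level. KO AngII 2 had the lowest nerve level and the highest mesothelium, brown adipocyte and Ucp1 levels. Results below are given without these 3 libraries where that moved a value.

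The subunits were abundant. On average over the 20 libraries 61 of the 97 members reached 100 FPKM, and 90 were at 1 FPKM or more in every library. In complex I high means included those of the accessory subunit Ndufb9 (311 FPKM) and of Ndufa4 (245 FPKM). Ndufa4 was named for complex I and is now assigned to complex IV, but by its symbol it is counted here with complex I. In complex II the highest means were those of Sdha (407 FPKM), the iron-sulfur subunit Sdhb (291 FPKM) and the membrane anchor Sdhd (232 FPKM), while the other anchor, Sdhc, averaged 33.0 FPKM. The 8 complex III subunits that the rule names were led by the core protein Uqcrc1 (356 FPKM) and the small subunits Uqcrh (294 FPKM) and Uqcr10 (292 FPKM). These 8 spanned a narrow range, down to 168 FPKM for Uqcrq. Complex IV was led by Cox6a1 (1308 FPKM), Cox4i1 (839 FPKM) and Cox8a (601 FPKM). Complex V was led by the catalytic beta subunit Atp5b (1300.4 FPKM), the alpha subunit Atp5a1 (661 FPKM) and the stalk subunit Atp5h (338 FPKM). The 13 assembly factors were far lower, between 2.01 FPKM for Atp5s, a factor that couples the ATP synthase, and 22.8 FPKM for Sdhaf4.

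Summed over the 84 subunits, the level varied 3.36-fold between libraries. The sums of the 5 WT saline libraries, in the order of their replicate numbers, were 16566, 23308, 15929, 13959 and 28299 FPKM. Those of WT AngII were 19144, 22619.9, 19893, 20163 and 12726 FPKM, those of KO saline 12762, 19104, 8430.0, 17702 and 12814 FPKM, and those of KO AngII 17510.3, 23763, 12231, 13146 and 14865 FPKM. The highest sum, in WT saline 5, and the lowest, in KO saline 3, were both in saline groups, and all 4 groups overlapped. Group means were 19612 ± 5999 FPKM in WT saline, 18909 ± 3694 in WT AngII, 14162 ± 4289 in KO saline and 16303 ± 4629 in KO AngII (SD, n = 5 each). Most members shared their extremes: 68 of the 94 tested had their lowest value in KO saline 3, and 67 had their highest in WT saline 5. In bulk tissue, fewer cells of a type and less RNA per cell cannot be told apart.

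**Figure D1:**
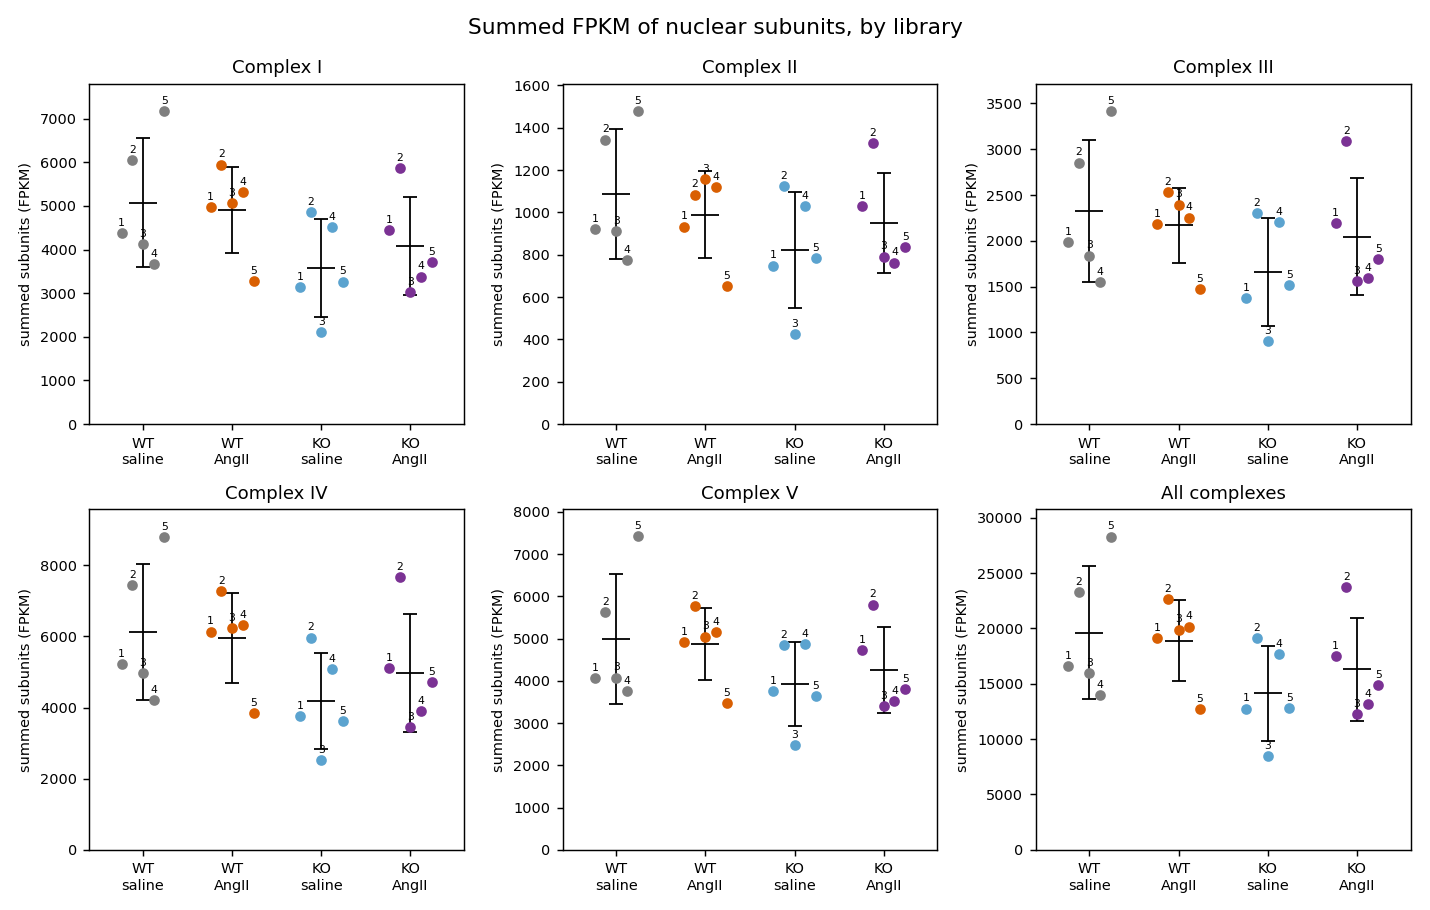
Summed FPKM of the nuclear subunits of each complex and of all 84 subunits (vertical axes, from 0) in the 4 groups; points are libraries numbered by replicate, bars are the mean and SD of 5. The same libraries stand high or low in every panel, with WT saline 5 highest and KO saline 3 lowest in each.

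The shares of the 5 complexes varied less than their sum. Complex I made up 24.5% to 26.4% of the subunit FPKM of a library, complex II 4.79% to 6.47%, complex III 10.8% to 13.0%, complex IV 28.2% to 32.3% and complex V 24.1% to 29.4%. Complex IV averaged 6129 ± 1918 FPKM in WT saline and 4189 ± 1348 FPKM in KO saline (SD, n = 5), and complex I averaged 5076 ± 1478 and 3573 ± 1118 FPKM (SD, n = 5). Complex V varied least, 3.0-fold between libraries, and complex III most, 3.76-fold. The share of complex V was 28.0% ± 1.67 in KO saline and 25.5% ± 1.18 in WT saline (SD, n = 5), and the ranges of the groups overlapped. The share of complex III was 12.5% ± 0.389 in KO AngII (12.1% to 13.0%) and 11.5% ± 0.356 in WT AngII (11.18% to 12.04%), with SD over n = 5, and these ranges did not overlap. For each complex, all other share ranges of compared groups overlapped. Shares were not tested.

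The comparison of knockout with wild type aortas under saline showed lower values for nearly all members, but no single member passed the test. Of the 94 members 91 were lower in knockout by the mean of log2(FPKM + 1), against 57.1% of all 15010 genes, with a median log2 difference of -0.44 for the members and -0.04 for all genes. Under a Benjamini-Hochberg adjusted p of 0.05 in limma, 0 members were called, and 2 genes of all, 0.0133%. At an unadjusted p of 0.05, 27 members (28.7%) were lower and 1 was higher, against 5.48% and 1.89% of all genes. All 37 tested subunits of complex I, 4 of complex II, 8 of complex III and 16 of complex IV were lower, with medians of -0.52, -0.41, -0.52 and -0.48, and 14 of the 16 of complex V, with a median of -0.29. The members were read in the same libraries and have most of their extremes in the same libraries, so 91 of 94 is not a count of independent genes. Nothing in the labels says that each library came from a separate mouse, and p-values measure only the spread between these samples.

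The subunits with the smallest p under saline came from several complexes. Cox6b2, known as the testis form of a complex IV subunit, was the only member besides Ndufa2 whose KO saline libraries were all below the WT saline libraries, as 1.02% of all genes were. Its values were 7.44, 5.04, 7.23, 4.96 and 4.99 FPKM in WT saline and 2.57, 4.06, 3.35, 3.47 and 2.93 FPKM in KO saline. The highest knockout value lay under the lowest wild type value, and the log2 difference was -0.69 (SE 0.22), with an adjusted p of 0.476 in limma. Ndufa2, an accessory subunit of the matrix arm of complex I, was 122, 145, 126, 114 and 205 FPKM in WT saline and 82.1, 112, 71.1, 112 and 72.6 FPKM in KO saline. Its groups were separate by a small margin, with a log2 difference of -0.65 (SE 0.21) and an adjusted p of 0.478 in limma. Ndufv3, an accessory subunit beside the NADH site, differed by -0.64 (SE 0.21), and Cox5b, a complex IV subunit on the matrix side, by -0.79 (SE 0.27). Cox8b differed by -1.12 (SE 0.44). In complex III the smallest p was that of Uqcr11, a small membrane subunit, at -0.75 (SE 0.32). In complex V, Atp5mpl and Atp5h, both outside the catalytic head, differed by -0.64 (SE 0.25) and -0.49 (SE 0.21). None of these passed the adjusted threshold.

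A total of 3 members were not lower. Atp5d (delta subunit of the ATP synthase) and Atp5g3 (one of the genes for its c ring) had log2 differences of 0.50 (SE 0.55) and 0.09 (SE 0.25). Ndufaf5, a methyltransferase that helps build complex I, differed by 0.87 (SE 0.36), with an unadjusted p of 0.0270 and an adjusted p of 0.607. The assembly factors as a group had a median of -0.20, and 12 of 13 were lower.

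**Figure D2:**
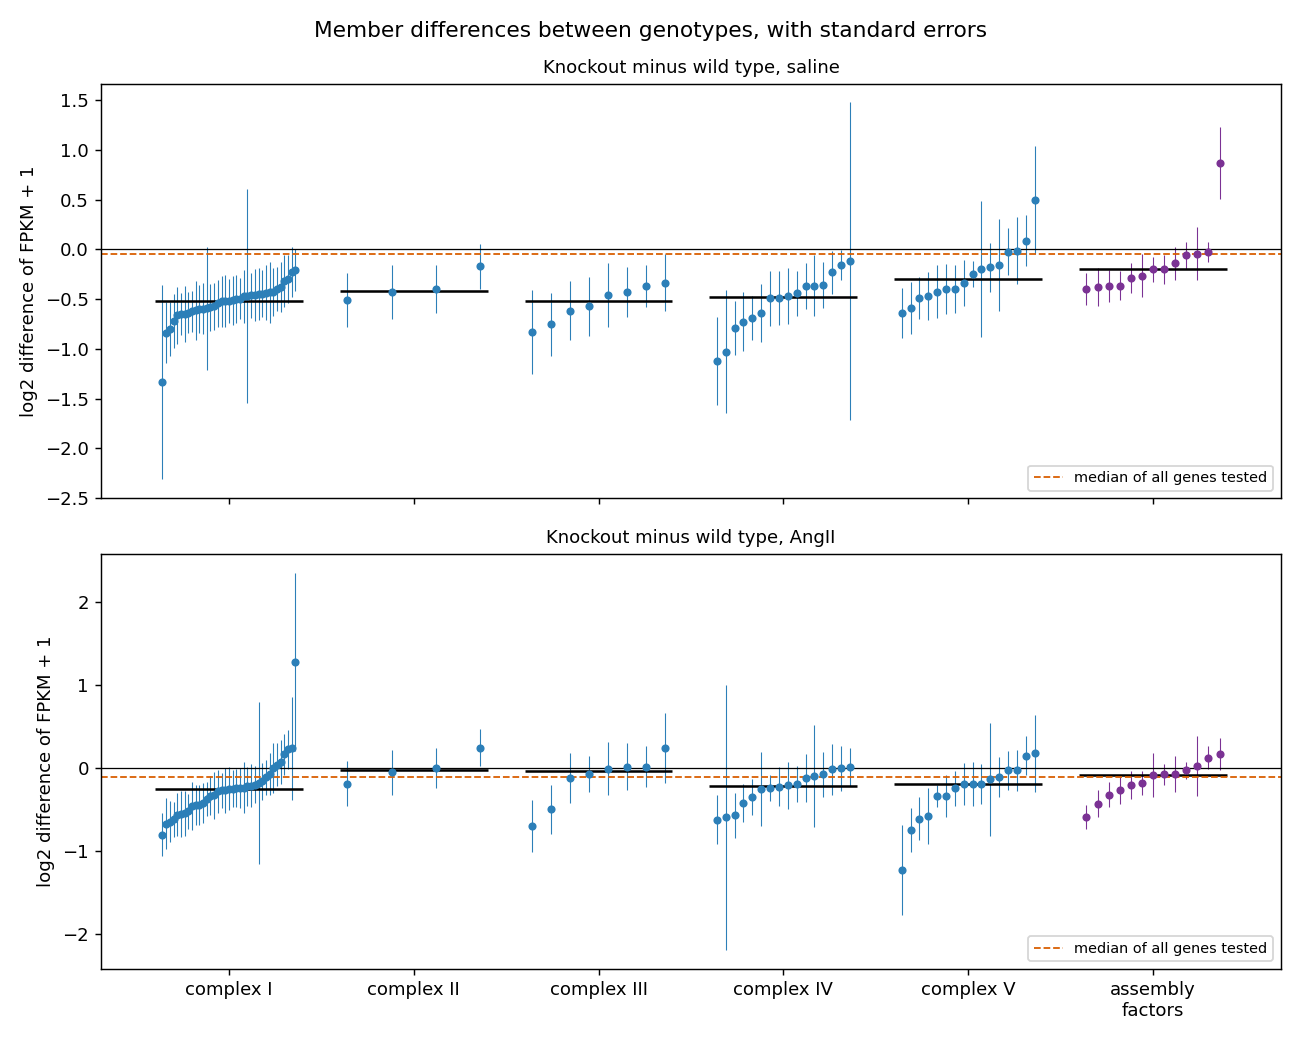
Log2 difference of FPKM + 1 between knockout and wild type (vertical axes) for the 94 tested members by complex, with saline above and AngII below; points are genes with their standard errors, black lines are medians and the dashed line is the median of all genes. Under saline all tested subunits of complexes I to IV lie below 0; under AngII the medians of complexes II and III lie at -0.03 and -0.04, and the median of all members, -0.20, turns to 0.02 by quantile normalization and to 0.08 with the length and GC trend removed.

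The lower values in KO saline went with lower brown adipocyte markers. All 15 tested genes of the brown adipocyte list were lower in KO saline than in WT saline, with a median of -0.72, and none passed the test. The list holds the members Cox8b and Cox7a1, so its counts, medians and sums are in part the members' own values. The summed level of the 16 listed genes was 873 to 2947 FPKM in WT saline and 317 to 2239 FPKM in KO saline, and the groups overlapped. Ucp1 itself was 92.5 to 623 FPKM in WT saline and 22.7 to 745 FPKM in KO saline. KO saline 3, the library with the lowest subunit sum, was also the library with the lowest Ucp1 value. Of the listed genes 1 was under 1 FPKM in every library. The 11 tested vascular smooth muscle genes were likewise all lower, with a median of -0.49, and so were the 8 T cell markers, with a median of -1.12 and sums of 35.2 to 260.0 FPKM in WT saline and 6.28 to 446 FPKM in KO saline. Of 12 white adipocyte markers 9 were lower and 3 higher, with a median of -0.22 and none called. They summed to 9599 to 12284 FPKM in WT saline and 7743 to 11413 FPKM in KO saline, far above the brown adipocyte list. The skeletal muscle markers went the other way, with 15 of 18 higher and a median of 0.63. With the levels of the brown adipocyte list (without Cox8b and Cox7a1) and of the skeletal muscle list as covariates, 82 of 94 members were lower, with a median of -0.16 against -0.11 for all genes, and 0 members were called. Without KO saline 3 the median was -0.28, and without WT saline 5 it was -0.31. Without the 3 libraries that stood apart it was -0.14, with 75 of 94 lower, against -0.12 and 65.7% lower for all genes. KO saline 3 held the lowest value of 68 of the 94 and WT saline 5 the highest of 67. Leaving them out was thus bound to make the difference of those members less negative. The part of other tissue in the remaining difference was not tested.

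**Figure D3:**
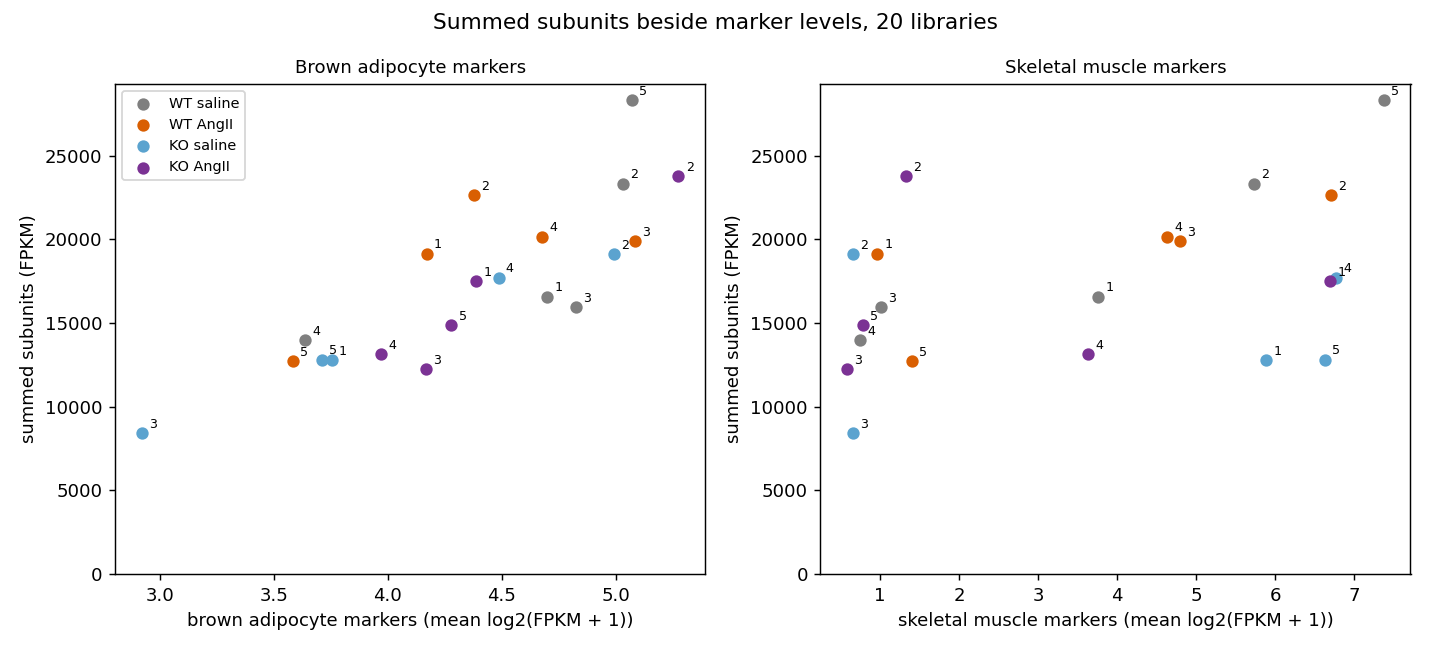
Summed FPKM of the 84 subunits (vertical axes, from 0) beside the mean log2(FPKM + 1) of 14 brown adipocyte markers without members of the set (left) and of 20 skeletal muscle markers (right); each point is a library, coloured by group and numbered by replicate. KO saline 3, at 8430.0 FPKM, is lowest on both the vertical axis and the brown adipocyte axis, and WT saline 5, at 28299 FPKM, is highest on the vertical and the muscle axis.

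Under AngII the comparison of knockout with wild type gave a median over the members nearer 0, and 1 call; the difference from the saline comparison called no member, as given further on. Of the 94 members 77 were lower in knockout, against 62.0% of all genes, with a median of -0.20 for members and -0.10 for all genes. Just 1 of the 94 members passed the adjusted threshold, in the lower direction, against 275 of 15010 genes, 1.83%, and 1.44% in that direction. At an unadjusted p of 0.05, 14 members (14.9%) were lower and none was higher, against 12.1% and 5.14% of all genes, so the members were called at about the background share. The direction over the members depended on scaling. After quantile normalization 51 of 94 were higher, with a median of 0.02; with FPKM rescaled to the total of nuclear coding genes the median was -0.03, and with factors in the manner of TMM it was -0.10. These scalings moved the median of all genes from -0.10 to 0.03, 0.05 and -0.01. No member lay wholly below or above the other group, as 3.84% and 1.37% of all genes did.

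The called member was Sdhaf1, an assembly factor that protects the iron-sulfur subunit of complex II while its clusters are inserted (ENSMUSG00000074211, chromosome 7, 30321406 to 30323895, minus strand, mm10). Its values were 8.45, 11.7, 8.01, 9.58 and 8.19 FPKM in WT AngII and 4.76, 5.29, 4.89, 6.04 and 8.11 FPKM in KO AngII. The groups overlapped in 1 library, KO AngII 5, and the other 4 knockout libraries were below every wild type library. Sdhaf1 was lower in knockout by a log2 difference of -0.59 (SE 0.14), with an adjusted p of 0.0439 in limma. Under saline its values were 8.85, 8.62, 8.36, 6.96 and 8.48 FPKM in WT and 5.92, 5.69, 8.39, 5.82 and 5.39 FPKM in KO, with a difference of -0.36 (SE 0.14) and an adjusted p of 0.583. The difference between those 2 differences was -0.22 (adjusted p 0.995). The call was lost under 9 of 13 alternative settings and without 13 of the 20 libraries left out singly, among them each of WT AngII 1, 2, 4 and 5 and of KO AngII 1, 2 and 3. Over these alternatives the log2 difference stayed between -0.70 and -0.42 and the adjusted p between 0.0280 and 0.174. Sdhaf1 has a low level, 4.76 to 11.7 FPKM. Its partner Sdhb, the subunit it serves, differed by -0.19 (SE 0.27) under AngII.

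Other members with small p under AngII did not pass the adjusted threshold. Ndufs7, a core subunit of complex I that carries its last iron-sulfur cluster, was 234, 289, 230.3, 240.5 and 119.9 FPKM in WT AngII and 149, 175, 104, 112 and 90.1 FPKM in KO AngII. WT AngII 5 lay among the knockout libraries, and the other 4 wild type libraries were above all of them. The log2 difference was -0.80 (SE 0.26), with an adjusted p of 0.112 in limma and of 0.0482 without WT AngII 5. Ndufa2 was 156, 198, 122, 147 and 103 FPKM in WT AngII and 102, 122, 65.5, 88.6 and 91.4 FPKM in KO AngII, with a difference of -0.62 (SE 0.21, adjusted p 0.126), close to its difference under saline. Atp5e was 441, 543, 379.6, 361 and 287 FPKM in WT AngII and 262, 362, 147, 219 and 228 FPKM in KO AngII, and differed by -0.75 (SE 0.27, adjusted p 0.151). Atp5e is the member nearest to Rab22a, 0.754 Mb away on chromosome 2 (174461072 to 174464105, minus strand), and the next nearest, Cox4i2, lies 20.9 Mb away. Uqcr11, Ndufa5 and Cox6a1 differed by -0.70 (SE 0.32), -0.67 (SE 0.30) and -0.62 (SE 0.30).

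Markers of other cells differed in this comparison too. All 8 T cell, all 8 B and plasma cell and all 10 macrophage markers were lower in KO AngII than in WT AngII, with medians of -1.84, -1.84 and -0.75, and none was called. The summed T cell markers were 121 to 259 FPKM in WT AngII and 6.14 to 245 FPKM in KO AngII, and the summed skeletal muscle markers 49.0 to 6119.6 and 13.8 to 5862 FPKM. Of 18 skeletal muscle markers 16 were lower (median -1.26), while all 6 mesothelium markers were higher (median 0.61), and none was called. Brown adipocyte markers, Cox8b and Cox7a1 among them, were split, with 7 higher and 8 lower and a median of -0.03. The part of these cells in the members' differences was not tested, apart from the covariates that follow.

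With the brown adipocyte and skeletal muscle levels as covariates, 740 of 15010 genes were called under AngII in either direction, 4.93%. Of the 94 members 8 were called, all of them lower. They were Ndufs7, Ndufa2, Ndufa5 and Ndufb11 of complex I, Cox6a1 and Cox5b of complex IV, Atp5e of complex V and Sdhaf1. The difference of Ndufs7 was then -0.76 (SE 0.14, adjusted p 0.0103) and that of Cox5b -0.56 (SE 0.15, adjusted p 0.0379). The median over the 94 members was -0.19 in this fit, close to -0.20 without covariates. Ndufa7, an accessory subunit of complex I, was called in a single one of the settings run, the one in which the 3 libraries that stood apart were left out. Its difference there was -0.86 (SE 0.19, adjusted p 0.0482 in limma), and the median of the members was then -0.35 with 83 of 94 lower. Of those 3 libraries only KO AngII 2 belongs to an AngII group, and leaving it out alone gave the same median and count. It had the highest subunit sum of KO AngII, 23763 FPKM. Its removal was thus bound to make the difference more negative for members whose highest KO AngII value it held. Most of the FPKM of Ndufa7 lay outside coding transcripts, as given further on.

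**Figure D4:**
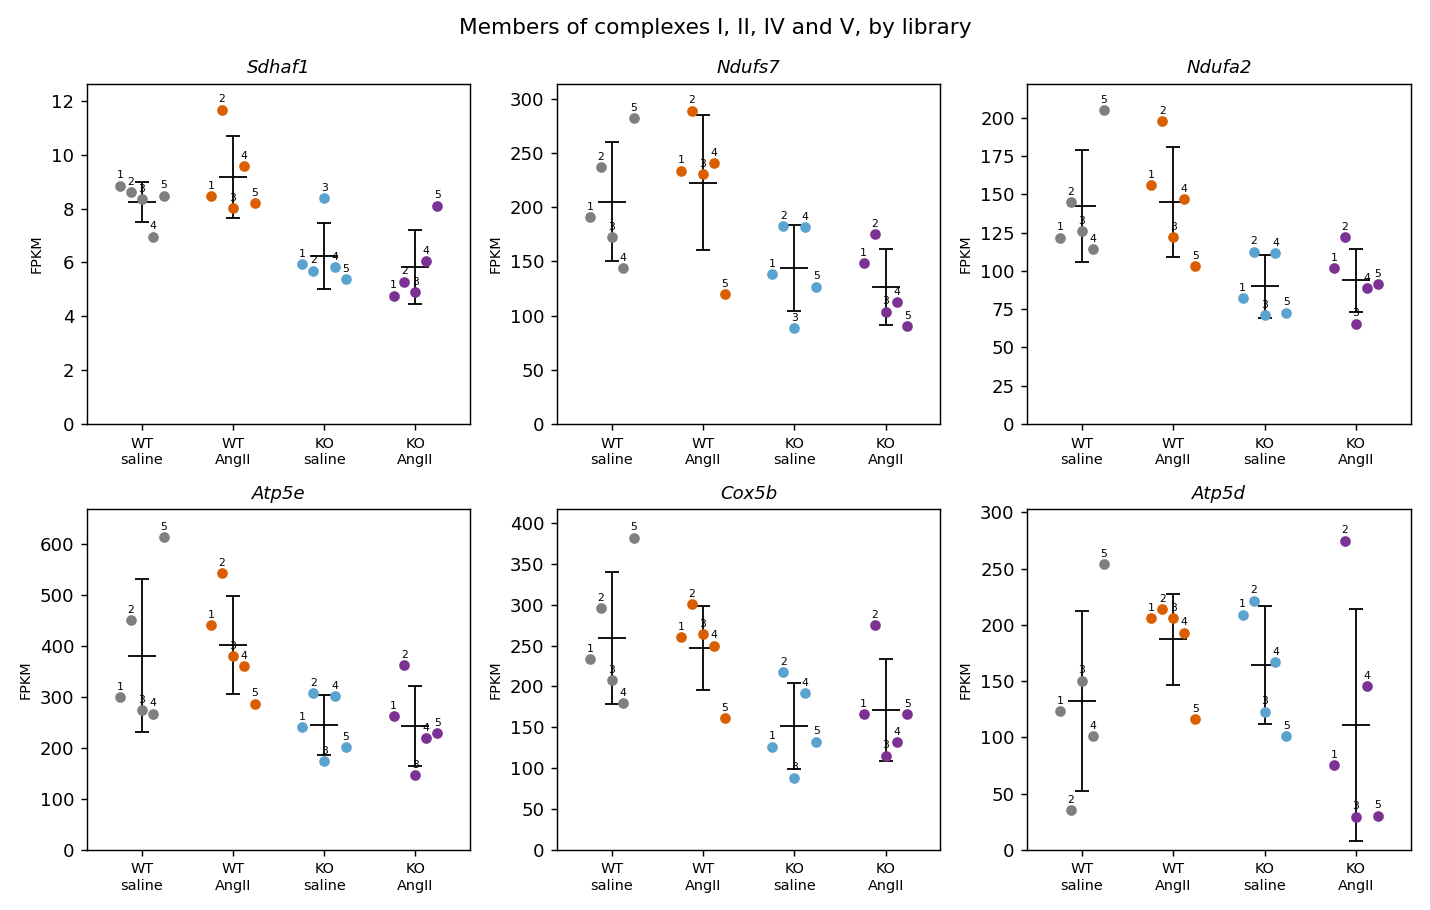
FPKM (vertical axes, from 0) of Sdhaf1, Ndufs7, Ndufa2, Atp5e, Cox5b and Atp5d in the 4 groups; points are libraries numbered by replicate, bars are the mean and SD of 5. WT AngII 5 lies below the other WT AngII libraries for Ndufs7, Ndufa2, Atp5e, Cox5b and Atp5d. Within KO AngII, Atp5d spreads from 29.6 to 275 FPKM.

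In the AngII comparison Sdha, Uqcrb and Cox8a differed by less than the SD of either group. Sdha was 406 ± 86.0 FPKM in WT AngII and 406 ± 92.8 FPKM in KO AngII (SD, n = 5). Uqcrb, the ubiquinone-binding protein of complex III, was 277 ± 52.5 and 284 ± 100.1 FPKM, and Cox8a was 623 ± 96.2 and 643 ± 201 FPKM (SD, n = 5). Ndufs1, the largest core subunit of complex I, was 101 ± 16.9 FPKM in WT AngII and higher in KO AngII, at 120.4 ± 33.2 FPKM (SD, n = 5), with a log2 difference of 0.23 (SE 0.24) that did not pass the test. The medians by complex were -0.25 for I, -0.03 for II, -0.04 for III, -0.22 for IV and -0.19 for V.

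Short transcripts differed more than long ones between the genotypes over all genes, and the members are short. Their median annotated length was 913 bases against 2865 for all genes tested, with nearly equal GC content (50.4% and 50.2%). Among genes with transcripts under 1000 bases, the median log2 difference under AngII was -0.38 for all 1739 genes and -0.28 for the 52 members. Between 1000 and 2000 bases it was -0.24 for all genes and -0.17 for 28 members, and between 2000 and 4000 bases -0.11 and -0.03 for 11 members. The 3 members of 4000 bases or more had a median of -0.14 against 0.09 for all 4631 such genes. Under AngII the members' median was thus above that of genes of their length in the 3 classes under 4000 bases and below it in the fourth. Under saline it was below in all 4 classes, at -0.49 against -0.21 under 1000 bases, -0.43 against -0.12 from 1000 to 2000 bases, -0.32 against -0.04 from 2000 to 4000 bases and -0.20 against 0.05 above. With the trend on length and GC content removed from each library, the members' median was 0.08 under AngII, with 33 of 94 lower, and -0.28 under saline, with 85 of 94 lower.

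AngII treatment within a genotype called no member. In wild type mice 0 of 94 members and 0 of 15010 genes (0.0%) were called, and no member had an unadjusted p under 0.05, against 458 genes, 1.58% lower and 1.47% higher. The median log2 difference of the members was -0.02 and that of all genes 0.02. It was 0.12 without WT saline 5 and 0.10 without WT AngII 5, and the members lower numbered 57 of 94 with all libraries, against 46.4% of all genes, and 12 without WT AngII 5. In knockout mice 78 of 94 members were higher under AngII, against 38.7% of all genes, with medians of 0.19 and -0.06. No member was called, as no gene was (0.0%), and Atp5s alone had an unadjusted p under 0.05, at 0.42 (SE 0.19, unadjusted p 0.0435, adjusted p 0.991 in limma). Of all genes 2.32% were higher and 1.65% lower at that unadjusted p. The brown adipocyte markers, Cox8b and Cox7a1 among them, went the same way, with 15 of 15 higher and a median of 0.49. So did 10 of 11 vascular smooth muscle markers (median 0.51) and 6 of 6 mesothelium markers (median 0.89). Skeletal muscle markers went the other way, with 16 of 18 lower and a median of -1.95. None of these markers was called, and their part in the members' values was not tested. Without KO saline 3 the members' median in knockout was 0.03, and without KO AngII 2 it was 0.07. Without the 3 libraries that stood apart 65 of 94 members were lower, with a median of -0.08. KO saline 3 held the lowest value of 68 of the 94, so leaving it out was bound to lower the difference of those members. The same holds for KO AngII 2 and the members whose highest KO AngII value it held. The treatment and knockout comparisons share groups, so their values are not independent.

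The difference between the genotypes in their response to AngII called 0 members and 0 genes (0.0%), and 1 member, Atp5d, had an unadjusted p under 0.05 (lower), against 501 genes, 1.81% lower and 1.53% higher. The members' median was 0.23, with 77 of 94 higher, against -0.07 and 41.0% for all genes. Brown adipocyte markers, Cox8b and Cox7a1 among them, were higher in this contrast for 15 of 15 (median 0.90). So were mesothelium markers for 6 of 6 (median 1.18) and vascular smooth muscle markers for 10 of 11 (median 0.54). Skeletal muscle markers were lower for 15 of 18 (median -2.13), and none of these markers was called. The members' median was -0.16 without the 3 libraries that stood apart, and -0.02 with both tissue covariates. Leaving out KO saline 3 and WT saline 5, which hold the extremes of most members, was bound to lower this contrast for those members. The same holds for KO AngII 2 and the members whose highest KO AngII value it held.

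The tissue forms Cox8b, Cox7a1 and Cox6a2 varied more between libraries than their partners Cox8a, Cox7a2 and Cox6a1: Cox8b 9.20-fold against 3.08-fold for Cox8a, and Cox7a1 23.3-fold against 2.94-fold for Cox7a2. Cox8b, the form known from muscle and brown fat, was 315, 561, 297, 198 and 611 FPKM in WT saline, 319, 475, 402, 347 and 165 in WT AngII, 137, 343, 66.4, 269 and 152 in KO saline and 296, 594, 150.4, 199.8 and 274 in KO AngII. KO saline 3 was lowest and WT saline 5 highest, and the 4 groups overlapped. Its share of Cox8a and Cox8b together ran from 17.3% in KO saline 3 to 44.1% in WT saline 5. Cox7a1, which has the same tissues, was 111, 219.5, 94.7, 39.9 and 284 FPKM in WT saline and 58.2, 124, 12.2, 129 and 61.1 in KO saline. In WT AngII it was 104, 162, 169, 119 and 50.8 FPKM and in KO AngII 135, 259, 52.4, 69.2 and 98.9 FPKM. Its share of Cox7a1 and Cox7a2 ran from 9.47% in KO saline 3, where Ucp1 was 22.7 FPKM, to 47.9% in KO AngII 2, where Ucp1 was 1170.2 FPKM. Those were the lowest and the highest Ucp1 values of the 20 libraries.

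Cox6a2, the heart and skeletal muscle form, and Atp5g1, one of the 3 genes for the c subunit of the ATP synthase, stood highest in other libraries. Cox6a2 was 5.00, 52.2, 0.938, 2.42 and 262 FPKM in WT saline and 1.63, 101, 27.6, 11.6 and 2.57 FPKM in WT AngII. In KO saline it was 35.8, 0.0764, 1.37, 91.6 and 41.6 FPKM and in KO AngII 109, 22.6, 0.767, 7.59 and 0.118 FPKM. Its highest value in WT saline was in replicate 5, in WT AngII in replicate 2, in KO saline in replicate 4 and in KO AngII in replicate 1. In those 4 libraries the 20 skeletal muscle markers summed to 10432, 6119.6, 6419 and 5862 FPKM. KO saline 1 and KO saline 5, with Cox6a2 at 35.8 and 41.6 FPKM, had muscle sums as high, 6207 and 6582 FPKM. In KO AngII 5, with Cox6a2 at 0.118 FPKM, they summed to 26.0 FPKM. Atp5g1 was 37.7, 91.7, 36.2, 35.6 and 357 FPKM in WT saline and 67.7, 36.5, 21.4, 180.4 and 84.1 FPKM in KO saline, highest in the same replicates 5 and 4. Of the c subunit genes together Atp5g1 made up 8.20% to 46.5%. The other two differed in their steadiness: Atp5g2 varied 1.85-fold between libraries, and Atp5g3 from 56.0 to 210.3 FPKM. No tissue form was called in any comparison.

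**Figure D5:**
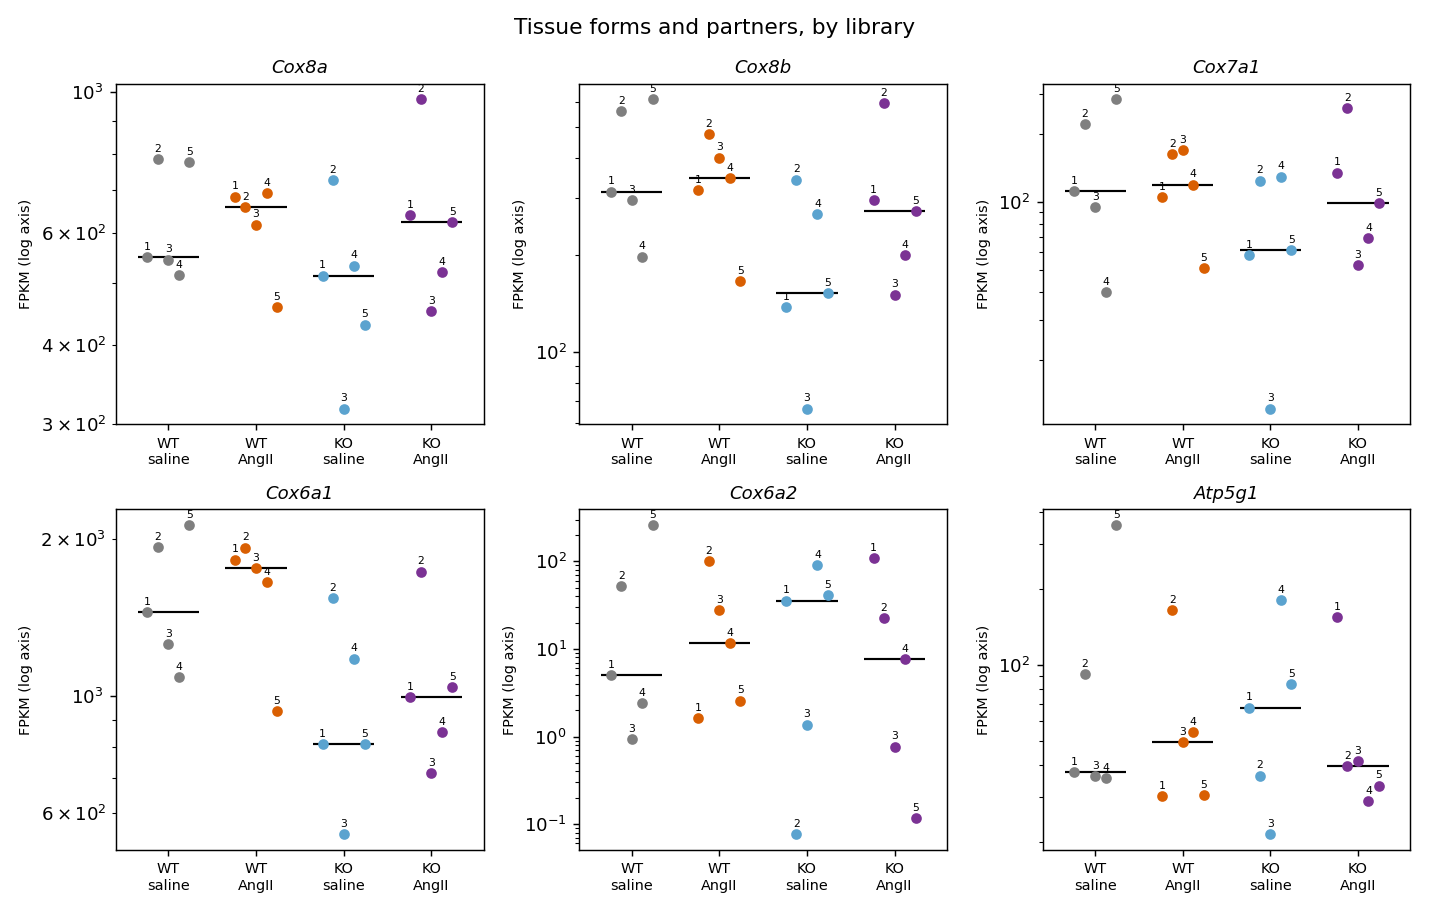
FPKM (log axes) of Cox8a, Cox8b, Cox7a1, Cox6a1, Cox6a2 and Atp5g1 in the 4 groups; points are libraries numbered by replicate and lines are group medians. Cox6a2 and Atp5g1 are highest in WT saline 5, WT AngII 2, KO saline 4 and KO AngII 1 within their groups, and Cox8b and Cox7a1 are lowest in KO saline 3.

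The remaining forms were minor. Cox4i2, the form known from lung and from low oxygen, was 1.98 to 5.94 FPKM, at most 0.865% of Cox4i1 and Cox4i2. Ndufa4l2, known to be raised in low oxygen, was 6.27 to 20.3 FPKM, 2.03% to 7.23% of Ndufa4 and Ndufa4l2. Cox6b2 was at most 2.12% of Cox6b1 and Cox6b2. Cox7b2 and Cox8c, known from testis, were at most 0.0715 and 0.0892 FPKM. Cox7a2l, which joins complexes III and IV into supercomplexes, did not vary with the other subunits: it spanned 1.74-fold, and its highest value of the 20 libraries, 205 FPKM, was in KO saline 3.

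Some members carried values that switched between transcripts or to 0. There were 11 coding transcripts of 10 members that stood at 20 FPKM or more in a library and under 1 FPKM in another. The transcript Atp5d-203 was 79.4, 0, 111, 0 and 171 FPKM in WT saline, 119, 142, 143, 145 and 69.9 in WT AngII, 0.00926, 153, 0, 98.6 and 74.5 in KO saline and 48.0, 0, 0.0379, 92.1 and 0.0852 in KO AngII. It was under 1 FPKM in 7 libraries of 3 groups, while Atp5d-202 was present in all 20. Summed over its transcripts Atp5d was 206, 214, 206, 193 and 116 FPKM in WT AngII and 75.2, 275, 29.6, 145 and 30.4 FPKM in KO AngII. Its log2 difference under AngII, -1.23 (SE 0.55, adjusted p 0.255 in limma), was the most negative of all members. KO AngII 2, with the highest value of its group, had Atp5d-203 listed at 0 and Atp5d-201 at 246 FPKM, so the transcript that carried the gene differed between libraries of 1 group. Ndufs8, a core iron-sulfur subunit of complex I, ranged from 0.0678 to 36.8 FPKM, and Ndufa12, an accessory subunit of the matrix arm, from 2.77 to 72.3 FPKM. Ndufa13 was under 1 FPKM in 17 libraries and at 9.63, 13.6 and 12.2 FPKM in WT AngII 5, KO saline 1 and KO saline 4. All 3 are subunits of a complex that respiring cells need, and an exact 0 here says only that the gene is listed at 0. Ndufa7 had 4.55% of its FPKM in coding transcripts, and the rest chiefly in Ndufa7-202, annotated as subject to nonsense-mediated decay. For 72 of the members at least 95% of the FPKM lay in coding transcripts. Many subunit genes have processed pseudogenes, and how reads shared with such copies were assigned is not given in the sources used here.

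Other mitochondrial gene lists were set beside the members. Of 17 citrate cycle genes 17 were lower in knockout under saline, with a median of -0.47, and 10 under AngII, with a median of -0.01. The smallest p under saline was that of Idh3g, a subunit of isocitrate dehydrogenase, at -1.56 (SE 0.38, adjusted p 0.252 in limma). Of 35 assembly factors outside the symbol rule 31 were lower under saline (median -0.22) and 27 under AngII (median -0.15). Among them Uqcc3, which helps assemble complex III, differed by -0.54 (SE 0.14) under AngII, with an adjusted p of 0.0524 in limma. Of 30 mitochondrial ribosomal proteins 28 were lower under saline (median -0.28) and 26 under AngII (median -0.24), with Mrpl9 at -0.52 (SE 0.11) and -0.39 (SE 0.11). Of 15 electron carriers and ATP export genes 13 were lower under each treatment, with medians of -0.20 and -0.21. Of 17 tested regulators of mitochondrial biogenesis 12 were lower under saline (median -0.12) and 8 under AngII (median 0.05). Esrrg and Esrra, which encode estrogen-related receptors, had the smallest p under saline, at -1.11 (SE 0.36) and -2.09 (SE 0.74). No gene of these lists was called in any comparison, and none of the lists was tested as a set.

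The subunits encoded in mitochondrial DNA could not be read gene by gene. Of 13 listed, 10 were tested, and single genes were near 0 in some libraries and among the highest values in others. The gene mt-Cytb, the catalytic subunit of complex III, was at 8049 and 8949 FPKM in WT AngII 1 and 2 and at no more than 5.55 FPKM in each WT saline library. The sum over the 13 genes was 25890.5 to 37407 FPKM in WT saline, 20142 to 36999 in WT AngII, 14376 to 30210.2 in KO saline and 24628 to 47902 in KO AngII, and the groups overlapped. KO saline 3 was lowest in this sum as well.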

How the data were processed

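Total RNA of mouse abdominal aorta, depleted of ribosomal RNA, was sequenced in 20 libraries. The authors deposited 1 value per transcript and library, on the build mm10; that build and limma are given per the submitters' processing notes. The labels name no unit. From their whole-read steps (tolerance 0.1 reads) the deposited values were read as FPKM of the authors' own count. The FPKM of a gene's annotated transcripts were summed; models without annotation were left out. Log2(FPKM + 1) of genes at 1 FPKM or more in at least 5 libraries was fitted over all 4 groups in limma 3.58.1 (R 4.3.3) with trend and robust variance, giving 5 comparisons, each with Benjamini-Hochberg adjustment over 15010 genes at 0.05. Fold changes on this scale understate low genes. The fit was tested on simulated data.

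Members and lists were chosen with earlier results of these data known. Genes named are, per complex, the 3 highest subunits and the 2 with the smallest p in a comparison, every called member, the tissue forms and their partners, Cox5b, Atp5d and Atp5g3, members whose coding transcripts carry little of the sum or change a sign, and the 2 smallest p of a described list. Ndufa5, Ndufa12, Ndufa13, Ndufb4, Ndufb11, Ndufs8, Ndufaf5 and Atp5s were chosen after their values were seen. One gene that the rule names is not reported here. Alternatives were other scalings, filters, pseudocounts and transcripts, tissue covariates, a replicate block and each library left out. Promoter sequences are RefSeq's (GRCm38.p6).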

Additional observations from a re-analysis of the deposited data

Results flagged for a closer look

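Among 240 groups of 5 libraries, 14 values of named members stood apart from the other 4 of their group, with a gap over 0.71 of the group's range. Chance gives about 1 group in 20, and 14 of 240 is near that share. Atp5g1 was 357 FPKM in WT saline 5 (others 35.6 to 91.7), 164 FPKM in WT AngII 2 (others 30.2 to 54.0) and 155 FPKM in KO AngII 1 (others at most 41.7). Cox6a2 was 262 FPKM in WT saline 5, 101 FPKM in WT AngII 2 and 109 FPKM in KO AngII 1, where the others reached at most 52.2, 27.6 and 22.6 FPKM. Those are the libraries with the highest skeletal muscle sums of their groups.

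WT AngII 5 was low for Cox6a1, at 937 FPKM (others 1654 to 1923), and for Atp5d, at 116 FPKM (others 193 to 214). It also had the highest macrophage level of all libraries. Several assembly factors and a supercomplex factor stood apart in 1 library each. Ndufaf4 was 7.31 FPKM and Ndufaf8 29.8 FPKM in WT saline 5, against at most 4.59 and 18.2 FPKM in the others. Ndufaf3 was 18.9 FPKM in KO AngII 2 (others 14.3 to 15.5), and Cox7a2l 189 FPKM in WT saline 3 (others 145 to 156). Sdhaf1 was low in WT saline 4, at 6.96 FPKM (others 8.36 to 8.85), and high in KO saline 3, at 8.39 FPKM (others 5.39 to 5.92). KO saline 3 was thus the lowest library for most subunits and the highest of its group for Sdhaf1.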

How the results depend on the processing

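Knockout against wild type under saline kept a negative median of the members in every alternative run, with 75 to 92 members lower and 0 called; of the settings, coding transcripts only tested 93 members, the filter at 5 FPKM 89, no filter 97 and the others 94. Its distance from all genes shrank to -0.14 against -0.12 (65.7% of all genes lower) without the 3 libraries that stood apart, and to -0.16 against -0.11 (66.1%) with tissue covariates. The libraries left out hold the lowest knockout and highest wild type values of most members. Their removal was bound to shrink the difference of those members, and it also moves the other comparisons that use the saline groups. Leaving out KO AngII 2, the KO AngII library with the highest subunit sum, likewise moves the comparisons that use that group. The other comparisons depended on the processing. For knockout against wild type under AngII, members called were 0 under quantile normalization, TMM-like scaling, the nuclear coding total, coding transcripts only, no filter, the compared groups only, the replicate block and removal of the length and GC trend, and 8 with tissue covariates; the members lower were 43 under quantile normalization and 33 with that trend removed. Genes called ran from 1 (compared groups only) to 740 (covariates), with 70 under the replicate block, 36 with the trend removed, and 9 without KO AngII 3 to 484 without WT AngII 3. For AngII in wild type, members lower were 16 with covariates and 13 without the 3 libraries that stood apart; in knockout they were 31 and 65. For the difference between the genotypes they were 10 under quantile normalization, 10 under the nuclear coding total, 9 with the trend removed, 51 with covariates and 78 without the 3 libraries, where the median was -0.16. The cause was not tested.

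With each library left out in turn, members called ran from 0 to 1 under AngII and were 0 in the other comparisons. The members lower ranged from 12 to 77 for AngII in wild type, with medians of -0.12 to 0.12, and from 11 to 38 in knockout, with medians of 0.03 to 0.33. They ranged from 83 to 92 for knockout against wild type under saline, with medians of -0.58 to -0.28, and from 65 to 83 under AngII, with medians of -0.35 to -0.12. For the difference between the genotypes they ranged from 12 to 33, with medians of 0.08 to 0.36. Without WT AngII 5, 12 were lower in wild type, and without KO saline 3, 38 in knockout. Of 30 same-numbered pairs of libraries, 10 had correlated deviations over 0.1 (-0.52 to 0.41). Pairs with different numbers were not set beside them, so whether replicate numbers pair the samples cannot be told from this. The replicate block gave 37 members at an unadjusted p under 0.05 under saline, against 28 without it. The length and GC trend and the 3 left-out libraries were chosen after seeing the data.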
